A study of Mus musculus with 15 samples.

Results

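Medulloblastomas that arose without irradiation in mice with 1 working copy of Ptch1 were compared with normal mouse cerebellum. The members were chosen by their labels alone. They are 3 tumours of unirradiated mice, named MB1, MB2 and MB3 and labelled S-type, and 3 normal cerebella, in all 6 of the 15 arrays of the series. The tumour mice were female, Ptch1+/- and of the strain C3B6F1, had received no X-rays, and were followed until they were moribund. Their ages were 160, 173 and 172, without a unit in the labels. The normal cerebella came from unirradiated females aged 103, 103 and 113, and the labels used here give neither their genotype nor their strain. Age thus separated the groups completely, and age, moribund state and tumour cannot be told apart. The other 9 arrays enter in the estimate of spread and in a pair of comparisons at the end. They are 3 S-type tumours after 0.2 Gy (MB4 to MB6, aged 128 to 135, 1 of them male) and 6 R-type tumours, 3 after 0.2 Gy (MB7 to MB9, aged 106 to 127) and 3 after 1.5 Gy (MB10 to MB12, aged 87 to 103). All 12 tumour mice shared the Ptch1+/- genotype and the strain, and the irradiated ones were exposed on postnatal day 1. The labels do not explain the letters S and R. They number the tumours and the cerebella but do not say that each came from a separate mouse, and the p-values then reflect only how these samples vary, which may be technical.

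Ptch1 encodes the receptor that holds the hedgehog pathway off. When the ligand Sonic hedgehog, which Purkinje cells release in the young cerebellum, binds it, the transducer Smo is freed and the Gli transcription factors switch on their targets. Granule neuron precursors of the young cerebellum divide in response and then leave the cell cycle, migrate inward and become granule neurons, the most numerous neurons of the brain, and medulloblastoma in Ptch1+/- mice is held to start from these precursors.

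Each sample was measured on 1 one-colour array. A level below is the log2 of the processed signal less the 75th percentile of its array, so 0 is that percentile, and 1 unit is a factor of 2. Levels of different genes are not comparable, because each gene has its own probe. A change is the difference of the group means, with n = 3 and 3 against the cerebella. Its standard error (SE) is limma's and rests on the spread within the 5 groups of all 15 arrays. A gene passed when its Benjamini-Hochberg adjusted p from limma was below 0.05 over 21661 tested genes. On the 6 arrays 59.1% to 65.5% of the probes were well above background. Of the tested genes, 16070 passed (74.2%), 8819 of them higher (40.7%) and 7251 lower (33.5%) in the tumours. At least 2-fold changes were found for 5138 higher (23.7%) and 4597 lower genes (21.2%). An accession without a gene symbol counts here as a gene of its own. Of the tested genes 13428 have a symbol, and 5546 of these were higher and 4864 lower. The gene lists and the chromosome counts hold only genes with a symbol. In 16735 genes (77.3%) the groups did not overlap, whereas 365 genes passed although their values overlapped. With so large a background, most gene groups hold many passing members, and the counts below are to be read against these shares. The median change of all tested genes was 0.13, or 0.03 with no scaling between arrays.

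MB2 stood apart among the tumours. Over all tested genes it correlated with the normal cerebella at 0.829 to 0.833, where MB1 and MB3 gave 0.788 to 0.797, and the cerebella gave 0.990 to 0.992 among themselves. MB2 was the tumour nearest to the normal mean in 11001 of 21661 genes (50.8%), with MB1 nearest in 20.8% and MB3 in 28.4%. Values without MB2 are given below where they matter. The arrays lay on 4 slides scanned separately. Slide 1 held MB2 and the first normal cerebellum, slide 2 held MB3 and the second, the third cerebellum was on a slide without an unirradiated tumour, and MB1 on one without a normal cerebellum. Differences within slides 1 and 2 are therefore single pairs of arrays.

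The tissue labels matched most of their defining markers. Cerebella carried the tested markers of granule neurons, Purkinje cells, interneurons and glia well above background, while the interneuron marker Pax2 was not tested. Among the markers of granule precursors and tumour cells, Atoh1, the transcription factor that makes a cell a granule precursor, was at 2.61, 1.54 and 3.15 in MB1, MB2 and MB3. It was at -7.72, -7.62 and -7.61 in the cerebella, not well above background in any of them, so that its level was at least 255-fold higher in the tumours. Mki67, the antigen of dividing cells, was at 5.74, 5.47 and 5.79 in the tumours and at -4.99, -4.52 and -3.06 in the cerebella, a change of 9.85 ± 0.36. Of the same set of markers Barhl1 and Gli1 also rose, but Zic1 did not pass (-0.07 ± 0.11) and Zic2 fell (-1.24 ± 0.11). In tissue samples such as these, fewer cells of a type and less RNA per cell cannot be told apart. The Y-linked genes Ddx3y, Eif2s3y, Kdm5d and Uty were not well above background on any of the 6 arrays, as the labelled sex has it.

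Hedgehog pathway genes were mostly higher in the tumours. Of 26 listed genes 23 were tested, and 17 rose and 4 fell, with a median change of 1.51. That median was 1.63, 1.26 and 1.78 in MB1, MB2 and MB3 against the normal mean, and 1.34 and 1.70 within slides 1 and 2. Both genes that did not pass were Gpr161, a receptor that restrains the pathway in the cilium (0.34 ± 0.15, adjusted p = 0.055, and 0.028 without MB1), and Igf2, a growth factor (-0.77 ± 0.62, adjusted p = 0.28). Without MB2, Igf2 passed as lower (-1.42, adjusted p = 0.043).

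The ligand was low. Shh stood at -3.27, -3.32 and -3.43 in the cerebella and at -7.73, -7.81 and -7.14 in the tumours, where it was not well above background, and was at least 4.37-fold lower there. Dhh, the related desert hedgehog ligand, rose by 2.59 ± 0.49, with 1 of the 3 cerebella above background. Among the receptors, Ptch1 was at -3.06, -3.23 and -3.36 in the cerebella and at -1.59, -2.02 and -1.51 in the tumours. The groups did not overlap, MB2 was the lowest tumour, and the change was 1.51 ± 0.17 (2.85-fold, adjusted p = 4.73e-06), or 1.03 and 1.72 within slides 1 and 2. The labels do not say which part of Ptch1 the mutant allele lacks, so this probe does not check the genotype.

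Smo, the transducer that Patched restrains, rose by 2.93 ± 0.27. The 3 co-receptors split. Gas1 (1.28 ± 0.14) and Boc (1.25 ± 0.16) rose, while Cdon fell from 1.34, 1.08 and 1.40 to -3.96, -2.48 and -5.37, with 2 of 3 tumours above background. Hhip, a membrane protein that binds the ligand and is induced by the pathway, rose by 1.1 ± 0.32, a call that was lost when the median over its probes was used and with the replicate number as a block. Of the cytoplasmic regulators, the inhibitor Sufu rose by 2.05 ± 0.17 and the kinase homologue Stk36 by 1.29 ± 0.13.

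The transcription factors of the pathway moved in different directions. Gli1, an activator and the usual readout of pathway activity, was at -3.75, -4.02 and -4.11 in the cerebella and at -0.57, -1.19 and -0.59 in the tumours. All tumours lay above all cerebella, by 3.18 ± 0.22 (9.04-fold, adjusted p = 6.7e-08). Gli2, the main activator downstream of Smo, rose by 4.68 ± 0.14 (25.7-fold). Gli3, which acts mostly as a repressor, fell by 3.39 ± 0.63 on the log2 scale, with 2 of 3 tumours above background. The targets that drive division rose most. Mycn went from -1.57, -1.58 and -1.70 to 4.50, 4.62 and 4.72 (6.23 ± 0.09, 75.1-fold), with the smallest SE of the list. Ccnd2, the cyclin of granule precursors, went from -1.66, -1.51 and -1.23 to 6.45, 6.0 and 6.80 (7.89 ± 0.22), and Sfrp1, a secreted WNT antagonist, rose by 6.52 ± 0.15. Foxm1, a mitotic transcription factor, rose by 7.86 ± 0.32 with 2 of 3 cerebella above background. Cdk6, a kinase that cyclin D binds, was at least 30.3-fold higher. Bmi1, a polycomb protein needed by precursors, rose by 1.37 ± 0.13, and the survival gene Bcl2 fell by 0.58 ± 0.14 on the log2 scale.

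**Figure D1:**
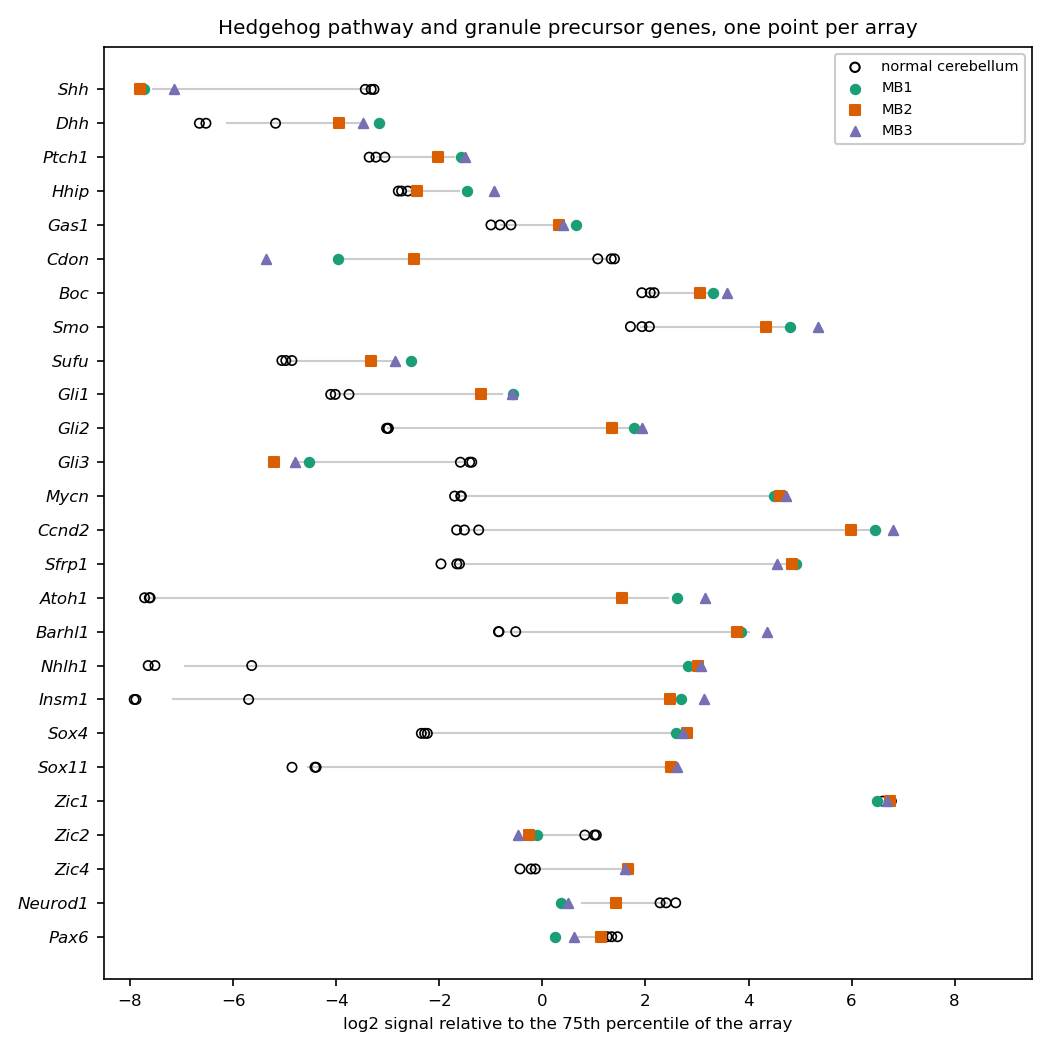
Levels of hedgehog pathway genes on the log2 scale relative to the 75th percentile of each array, with granule precursor genes below them and 1 point for each of the 3 normal cerebella and the 3 unirradiated tumours; grey lines join the group means. Ptch1, Gli1, Gli2, Mycn and Ccnd2 have all 3 tumours above all 3 cerebella, and Shh, Cdon and Gli3 all 3 below.

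Transcription factors of the granule lineage moved in both directions. Of 22 tested, 9 rose (40.9%) and 8 fell (36.4%), shares near those of all genes, with a median change of -0.03 that changed sign with the setting. Several factors of dividing or newly formed neurons rose. Barhl1, which follows Atoh1 in the precursor, was at 3.86, 3.78 and 4.36 in the tumours and at -0.84, -0.85 and -0.52 in the cerebella (4.74 ± 0.15). Nhlh1, a factor of newborn neurons, was at least 371-fold and Insm1, a zinc finger factor of dividing neuronal progenitors, at least 322-fold higher, neither being above background in a cerebellum. Sox11 went from -4.86, -4.41 and -4.39 to 2.47, 2.49 and 2.61 (7.08 ± 0.14), and the related Sox4 rose by 5.0 ± 0.24; both act in immature neurons. Nhlh2 (2.82 ± 0.16), Zic4 (1.90 ± 0.11) and Meis1 (1.26 ± 0.15) rose less.

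Other members were lower. Pax6, which acts in granule precursors, was at 1.35, 1.26 and 1.46 in the cerebella and at 0.25, 1.14 and 0.62 in the tumours (-0.68 ± 0.22, adjusted p = 0.013), a call lost without MB1, with the median over probes and with the replicate number as a block. Neurod1, of differentiating granule neurons, fell by 1.66 ± 0.39 on the log2 scale. Neurod2 went from 4.36, 4.24 and 4.40 to -1.24, 1.61 and -1.67 (-4.76 ± 0.75), with MB2 nearest to the cerebella. En2, a homeobox gene of the hindbrain, fell by 1.68 ± 0.13 on the log2 scale. The Zic family was not uniform. Zic1, a marker of the whole lineage, was at 6.75, 6.60 and 6.77 in the cerebella and at 6.49, 6.74 and 6.69 in the tumours, with overlapping groups (-0.07 ± 0.11, adjusted p = 0.56), but passed as lower with quantile normalization (-0.56, adjusted p = 0.0031). Zic2 fell from 0.82, 1.05 and 1.01 to -0.11, -0.26 and -0.47 (-1.24 ± 0.11). Eomes, a marker of unipolar brush cells, fell by 5.12 ± 0.67 on the log2 scale, with 1 of 3 tumours above background. Sox2, a stem cell and glial factor, fell by 2.20 ± 0.53 on that scale.

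Of 24 genes for the early neuronal cytoskeleton and adhesion, 13 rose and 5 fell, with a median change of 0.98. Dcx, a microtubule protein of migrating neurons, went from -3.65, -3.49 and -3.65 to 2.93, 3.40 and 3.07 (6.73 ± 0.18, 106-fold), and every tumour lay far above every cerebellum. Igfbpl1, a secreted protein of young neurons, was at least 571-fold higher. The tubulins Tubb5 (2.40 ± 0.09), Tubb2b (2.12 ± 0.28), Tubb2a (1.2 ± 0.13) and Tuba1a (0.98 ± 0.08) rose, as did the collapsin response proteins Dpysl3 (3.17 ± 0.27) and Crmp1 (2.29 ± 0.11). The members that fell included the axonal proteins Map1b (-2.17 ± 0.15), Mapt (-2.24 ± 0.35), Stmn2 (-1.75 ± 0.34) and Stmn3 (-1.19 ± 0.08). Map2, a dendritic protein, did not pass (-0.10 ± 0.11, adjusted p = 0.43). Of 6 intermediate filament genes, Nes, the filament of neural progenitors, rose by 3.82 ± 0.33 (2 genes rose without MB2), and the 3 neurofilament genes fell, with Nefl at 3.42, 4.31 and 3.47 in the cerebella and -3.90, -2.03 and -3.98 in the tumours.

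**Figure D2:**
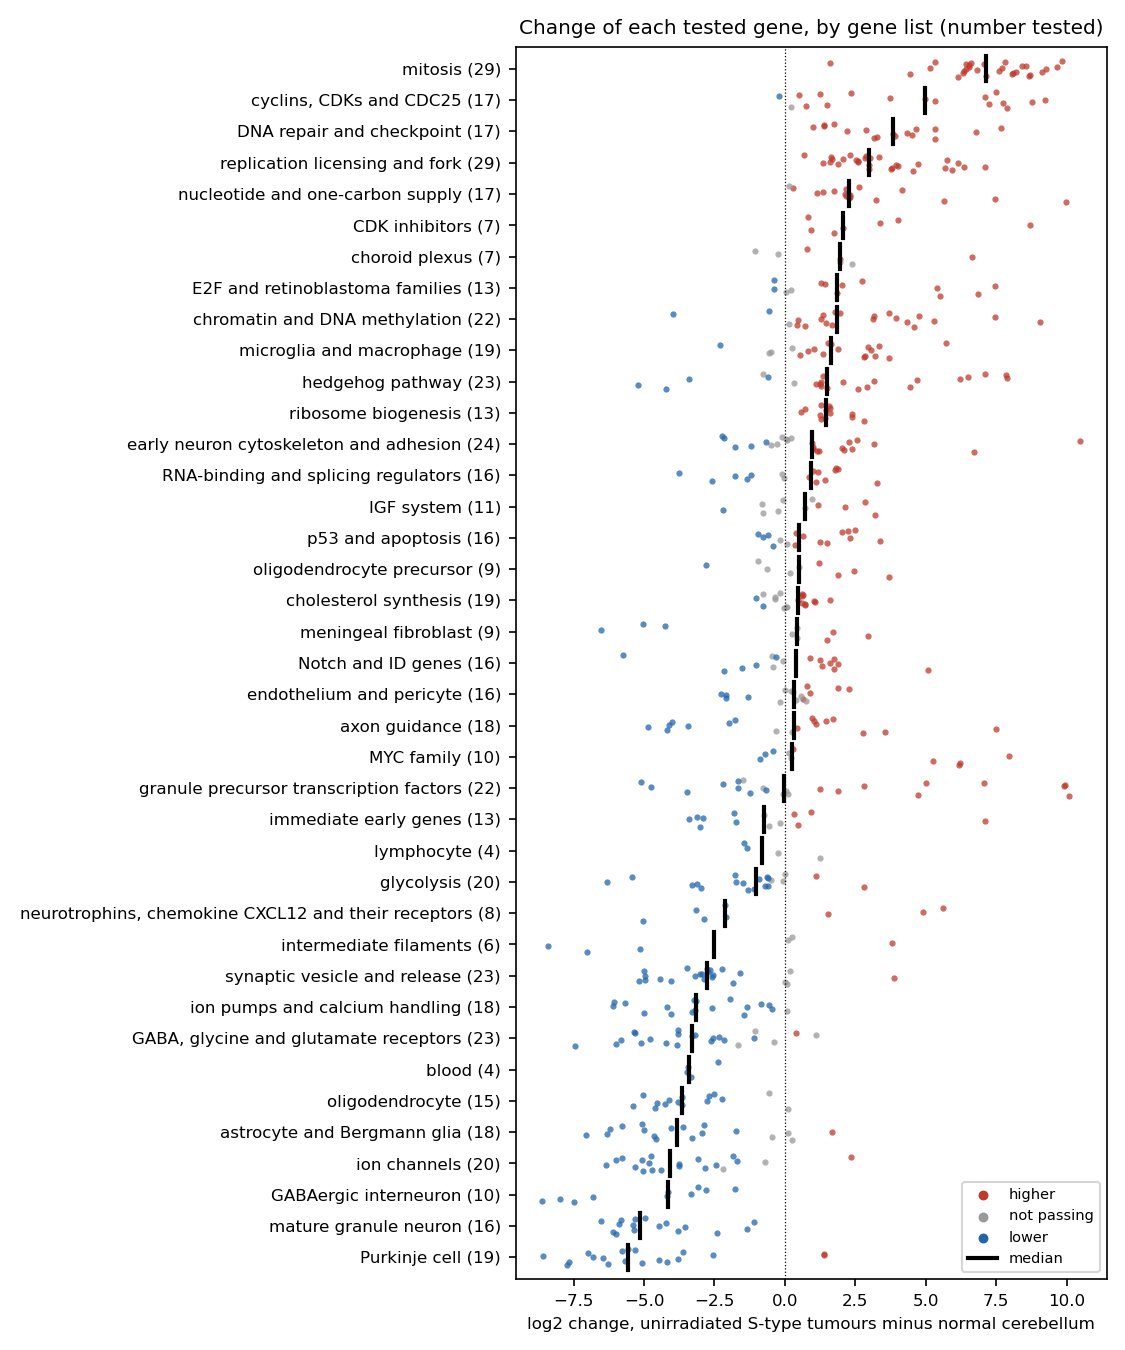
Change between unirradiated tumours and normal cerebella for every tested gene of each list, on the log2 scale, with 1 point for each gene, coloured by whether it passed as higher or lower, and a bar at the median. Mitosis (median 7.15) and cyclins and their kinases (4.99) lie farthest to the right, and Purkinje cell (-5.56), mature granule neuron (-5.15) and interneuron genes (-4.17) farthest to the left. Genes not above background in a group enter with their signals as measured.

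All 29 tested mitosis genes rose, against 40.7% of all tested genes, with a median change of 7.15 (7.00 and 7.55 within slides 1 and 2). Of these genes 8 were above background in no cerebellum, and the medians include their signals as measured. MB2 was nearest to the normal mean in 27 of the 29. Birc5, a subunit of the chromosomal passenger complex, went from -3.94, -3.33 and -3.01 to 5.06, 4.60 and 5.28 (8.41 ± 0.22). The passenger kinase Aurkb was at least 109-fold and the topoisomerase Top2a, which untangles sister chromatids, at least 180-fold higher. The kinesin Kif20a (8.20 ± 0.20), the ubiquitin conjugase Ube2c (7.82 ± 0.20), which ends mitosis, and the kinase Plk1 (7.15 ± 0.17) rose as well. The smallest change of the list was that of the cytokinesis protein Anln (1.59 ± 0.23).

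All 29 tested genes for replication licensing and the fork rose too, with a median change of 2.98 and MB2 nearest to the normal mean in 28. The helicase subunit Mcm6 went from 0.47, 0.60 and 0.68 to 6.34, 6.0 and 6.50 (5.70 ± 0.12, 52.0-fold), and its partners Mcm3 (5.92 ± 0.16), Mcm5 (3.76 ± 0.12) and Mcm7 (3.79 ± 0.11) rose with it. The loading factor Mcm10 rose by 7.12 ± 0.15 and the polymerase subunit Pole by 5.77 ± 0.13. Orc1, a subunit of the origin recognition complex, was at least 14.5-fold higher. The single-strand binding subunit Rpa1 changed least (0.67 ± 0.11).

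Many promoters of both lists hold the letters of known cell cycle elements, and those shown are examples of members with such letters. E2F factors, which the retinoblastoma proteins restrain until S phase, bind sequences such as TTTCCCGC, TTTGGCGC, TTTCGCGC and TTTGCCGC. The search covered the RefSeq promoters of GRCm38.p6, from 250 bases before to 50 after each start, on both strands, and matches may overlap. The replication stretches follow 5′ to 3′ on the strand of the gene, with the E2F letters in capitals.
Mcm6, chr1:128359725-128359835, minus strand: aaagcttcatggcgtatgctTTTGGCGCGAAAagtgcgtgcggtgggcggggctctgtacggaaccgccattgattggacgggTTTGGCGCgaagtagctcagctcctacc
Orc1, chr4:108579407-108579453, plus strand: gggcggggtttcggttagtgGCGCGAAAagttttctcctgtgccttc
Mcm7, chr5:138172021-138172068, minus strand: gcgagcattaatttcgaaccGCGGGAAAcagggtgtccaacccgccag
Mcm5, chr8:75109336-75109387, plus strand: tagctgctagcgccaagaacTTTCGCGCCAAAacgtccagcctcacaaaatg

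The mitosis stretches hold the cell cycle homology region, TTTGAA or TTTAAA, near a CCAAT box, and both are in capitals on either strand. Proteins that repress mitotic genes in resting cells and activate them before mitosis act through these elements.
Espl1, chr15:102296229-102296291, plus strand: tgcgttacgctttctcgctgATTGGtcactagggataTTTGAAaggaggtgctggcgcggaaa
Kif11, chr19:37376317-37376381, plus strand: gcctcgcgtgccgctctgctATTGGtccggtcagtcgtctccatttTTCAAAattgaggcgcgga
Ect2, chr3:27153909-27154012, minus strand: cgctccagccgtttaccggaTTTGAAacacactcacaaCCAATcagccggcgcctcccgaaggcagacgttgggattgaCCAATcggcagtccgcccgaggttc
Plk1, chr7:122159326-122159434, plus strand: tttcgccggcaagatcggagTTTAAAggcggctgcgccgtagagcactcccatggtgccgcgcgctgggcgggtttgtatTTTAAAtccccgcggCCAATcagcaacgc

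An E2F match was in 12 of the 23 replication promoters in the table (52.2%) and in 0 of 25 mitosis promoters, where all 27025 RefSeq promoters gave 2.6% and the tested genes 4.32%. A homology region match was in 22 of 25 mitosis promoters (88%) and in 21.7% of the replication ones, against 23.5% of the tested genes. The CCAAT box was in 76% of the mitosis and 69.6% of the replication promoters, against 42.9%. Among all genes at least 2-fold higher in the tumours, 6.93% had an E2F match, and among those at least 2-fold lower 2.34%. The consensus GACCACCCA of the Gli factors was in 0 of 16 hedgehog pathway promoters and in 0.289% of all. Such a match is a description of letters and not of binding. Of the genes shown, the levels of Espl1 rose by 6.61 ± 0.12 (1 of 3 cerebella above background) and of Ect2, which directs cleavage, by 7.06 ± 0.16, and the spindle kinesin Kif11 was at least 63.7-fold higher.

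Cyclins and their kinases followed. Of 17 tested, 15 rose and 1 fell (median change 4.99), and 6 were above background in no cerebellum. Ccna2, the cyclin of S and G2 phase, went from -3.17, -3.31 and -2.88 to 4.70, 4.24 and 4.90 (7.73 ± 0.17). Cdk1, the mitotic kinase, was at least 292-fold higher, and Cdk4, the partner of cyclin D, rose by 3.72 ± 0.09. The member that fell was Cdk5 (-0.20 ± 0.06), a kinase of postmitotic neurons, a call lost when only the 6 arrays were fitted. All 7 CDK inhibitors rose as well (median 2.05). Cdkn2c, the inhibitor p18 of Cdk4 and Cdk6, went from -1.03, -0.92 and -0.99 to 2.96, 2.73 and 3.39 (4.01 ± 0.16). Cdkn2a, the locus of p16 and p19Arf, was at -7.83, -7.74 and -7.75 in the cerebella, below background, and at 0.97, 0.49 and 1.34 in the tumours, at least 90.2-fold higher, and its neighbour Cdkn2b rose by 3.37 ± 0.24. Cdkn1b, the inhibitor p27 of granule precursors leaving the cycle, rose by 0.91 ± 0.18.

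Of 13 genes of the E2F and retinoblastoma families, 9 rose and 2 fell. E2f1 (5.49 ± 0.13), E2f2 (6.87 ± 0.16) and E2f7 (5.39 ± 0.09) rose, and the last, a repressor, had all tumours within 0.92 to 1.21. Rbl1, the pocket protein p107, rose by 2.75 ± 0.10, whereas Rbl2, p130 of resting cells, fell by 0.38 ± 0.08 on the log2 scale. Of 17 genes for nucleotide and one-carbon supply 16 rose (median 2.26). Thymidine kinase Tk1 was at least 414-fold higher, and thymidylate synthase Tyms went from -1.94, -1.70 and -1.64 to 3.90, 3.73 and 4.0. The exception was mitochondrial Mthfd1l (0.15 ± 0.13, adjusted p = 0.30). All 17 DNA repair and checkpoint genes rose (median 3.85), among them Brca1 (5.34 ± 0.11), the nuclease Exo1 (7.67 ± 0.14) and Fanca (4.34 ± 0.10), a Fanconi anaemia core protein.

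Chromatin genes rose in 19 of 22 cases and fell in 2 (median 1.86). The histone chaperone Chaf1b, which loads nucleosomes behind the fork, went from -3.50, -3.54 and -3.64 to 3.89, 3.68 and 4.09. The polycomb methylase Ezh2 rose by 4.60 ± 0.17 and the maintenance methylase Dnmt1 by 1.69 ± 0.10. The polycomb reader Cbx2 rose by 3.15 ± 0.12, while its relative Cbx7 fell from 1.70, 1.68 and 1.78 to -2.34, -2.37 and -2.05 (-3.98 ± 0.18).

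All 3 MYC genes were higher, not Mycn alone. Myc went from -4.02, -3.70 and -3.92 to 2.30, 1.93 and 2.67 (6.18 ± 0.16, 72.6-fold) and Mycl rose by 5.28 ± 0.13. Their shared partner Max fell by 0.87 ± 0.08 on the log2 scale, and of the antagonists Mxd3 was at least 104-fold higher and Mxd4 fell by 0.70 ± 0.13. Over the family 5 of 10 rose and 3 fell. All 13 tested ribosome biogenesis genes, a class that MYC proteins induce, rose (median 1.46), with the nucleolar methylase Fbl at 2.81 ± 0.11 and nucleophosmin Npm1 at 1.43 ± 0.10.

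Genes of the p53 response and of apoptosis gave 10 of 16 higher and 4 lower (median 0.52). Apaf1, the scaffold of the apoptosome, went from -1.96, -1.98 and -1.94 to 0.60, 0.50 and 0.52 (2.50 ± 0.06), with groups tight on both sides. The death-promoting Pmaip1 (3.39 ± 0.22), Bcl2l11 (2.02 ± 0.15) and Bax (1.51 ± 0.15) rose. The survival genes Bcl2, above, and Bcl2l1 (-0.96 ± 0.13) fell, but Mcl1, which also protects cells, rose by 0.39 ± 0.07. The p53 target Cdkn1a, p21, rose by 1.75 ± 0.31 and the p53 target Sesn1 fell by 0.79 ± 0.12 on the log2 scale.

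Mature granule neuron genes were lower without exception. All 16 tested fell, against 33.5% of all tested genes, with a median change of -5.15. That median was -5.49, -3.27 and -6.34 in MB1, MB2 and MB3, and -3.26 and -6.25 within slides 1 and 2. MB2 was nearest to the normal mean in 15 of the 16. Gabra6, a GABA receptor subunit particular to granule neurons, was at 4.90, 4.83 and 5.12 in the cerebella and at -1.50, 0.61 and -2.23 in the tumours (-5.99 ± 1.36). Snap25, a protein of vesicle fusion, went from 4.15, 4.01 and 4.18 to -1.37, 0.23 and -1.43 (-4.97 ± 0.36). Smaller changes were those of Rbfox3, the neuronal antigen NeuN (-1.35 ± 0.12), and of Cbln1, a synapse organiser that granule neurons secrete (-2.41 ± 0.16).

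The apparatus of synaptic release, excitability and inhibition was reduced in the same samples. Of 23 synaptic vesicle genes 19 fell and 1 rose (median -2.78), and MB2 was nearest to the normal mean in 19. Synaptophysin Syp went from 3.35, 3.39 and 3.38 to -0.28, 0.98 and -0.16, and the calcium sensor Syt1 fell by 4.05 ± 0.56 on the log2 scale. The member that rose was Stx1a, a membrane syntaxin, from -4.32, -4.42 and -4.95 to -0.83, -0.68 and -0.57. Of 23 receptor genes 18 fell and 1 rose (median -3.31), and the latter call was lost when any 1 of the 6 arrays other than MB2 was left out. The glutamate receptor subunit Gria1 fell by 4.80 ± 0.74 on the log2 scale.

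Of 20 ion channel genes 17 fell and 1 rose (median -4.09). The sodium channel subunit Scn2b went from 4.66, 4.55 and 4.80 to -1.40, -0.43 and -2.19, and the potassium channel Kcna1 from 6.31, 6.24 and 6.38 to 0.96, 3.19 and -0.35. The member that rose was Cacna2d1, a calcium channel subunit, by 2.34 ± 0.13. Of 18 genes for ion pumps and calcium handling 17 fell and none rose (median -3.16). Slc12a5, the chloride exporter that makes GABA inhibitory, went from 6.81, 6.80 and 6.85 to 0.00, 2.51 and -0.36 (-6.10 ± 0.67), and MB2 again kept the highest level. Slc12a2, the chloride importer of immature neurons, fell by 0.58 ± 0.09 on the log2 scale.

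Purkinje cell genes fell in 17 of 19 cases, with a median change of -5.56 and per-tumour medians of -5.93, -4.91 and -5.55. MB2 had the least reduced median but was nearest to the normal mean in 7 of 19 genes. Pcp2 was at 5.10, 5.05 and 4.97 in the cerebella and at -1.11, -1.54 and -1.09 in the tumours (-6.28 ± 0.24, 77.9-fold lower). Calbindin Calb1 went from 6.12, 6.05 and 6.05 to -2.05, -1.60 and -1.32 (-7.73 ± 1.24, the large SE coming from the spread over all 5 groups), and the signalling subunit Gng13 fell by 8.60 ± 1.08 on the log2 scale. Both Purkinje genes that rose were transcription factors, Lhx1 (1.37 ± 0.13) and Foxp2 (1.38 ± 0.29), which other cells of the brain also use, while Lhx5 fell by 6.98 ± 0.52 on that scale.

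All 10 tested interneuron genes fell (median -4.17). The glutamate decarboxylase Gad2 was at least 177-fold lower and the glycine transporter Slc6a5, of Golgi cells, at least 24.6-fold lower in the tumours, none of which had them above background. Gad1 (-7.49 ± 0.74) and Slc32a1 (-7.98 ± 0.93), the vesicular GABA transporter, remained above background in all 3 tumours.

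Most genes of mature glia fell. In astrocytes and Bergmann glia 14 of 18 tested genes fell and 1 rose (median -3.84), with medians of -3.83, -3.95 and -3.88 in the 3 tumours and MB2 nearest to the normal mean in 4. Aldoc, an aldolase of glia, went from 6.92, 6.76 and 6.66 to 0.12, 0.56 and 0.67 (-6.33 ± 0.66). The member that rose was the factor Sox9 (1.66 ± 0.13), and Gfap did not pass (0.26 ± 0.34, adjusted p = 0.51). Of 15 oligodendrocyte genes 13 fell and none rose (median -3.67), with the myelin protein Mog at least 19.2-fold lower. The myelin basic protein gene Mbp did not pass (0.10 ± 0.15, adjusted p = 0.56), but the median over all its probes gave -1.45. Of 9 precursor genes 4 rose and 1 fell (2 fell without MB2), a share of higher genes near that of all genes. Pdgfra, the growth factor receptor of these precursors, went from -1.83, -1.47 and -2.01 to 1.28, 1.55 and 2.97, and Olig2 from -2.08, -1.14 and -2.04 to 1.13, 1.23 and -0.24.

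Microglia and macrophage genes were higher as a group. Of 19 tested, 15 rose and 1 fell, with a median change of 1.64, and the median level ranged from -1.66 to -1.47 in the cerebella and from 0.62 to 1.1 in the tumours. Aif1, the protein Iba1, was at -1.46, -0.96 and -1.21 in the cerebella and at 2.91, 2.21 and 2.39 in the tumours (3.71 ± 0.20, 13.1-fold). The complement genes C1qa (2.82 ± 0.15), C1qb (2.86 ± 0.15) and C1qc (3.19 ± 0.15) rose together, as did Tyrobp (3.06 ± 0.18), an adaptor of myeloid receptors. Lyz2, lysozyme of macrophages, rose by 5.72 ± 0.34 with 2 of 3 cerebella above background. Of the members that did not rise, Tmem119 was at -0.50 ± 0.30 (adjusted p = 0.15) and P2ry12 at -0.56 ± 0.24 (adjusted p = 0.052, and 0.013 when only the 6 arrays were fitted), and Siglech, above background in 1 of 3 tumours, fell by 2.30 ± 0.47 on the log2 scale. The part that these cells have in other changes was not tested.

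Other cell types gave mixed counts. Of 16 vessel genes 5 rose and 4 fell, with 7 higher without MB2, and 3 higher without MB1, without the third cerebellum or with the slide as a block. The pericyte channel genes Kcnj8 (1.89 ± 0.38) and Abcc9 (2.28 ± 0.42) rose, while Slco1a4 (-2.08 ± 0.41) and Ly6c1 (-2.25 ± 0.25), of brain endothelium, fell. The junction gene Pecam1 (-0.17 ± 0.21) did not pass. Of 4 blood genes all fell (median -3.39), and beta globin Hbb-bt went from 3.78, 4.69 and 3.66 to 0.66, 0.13 and 0.94, a difference whose source was not tested. Of 4 tested lymphocyte genes 2 fell, or 1 without MB1, without MB3, or without the first or the third cerebellum.

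Choroid plexus genes separated the tumours from each other. Of 7 tested, 3 rose and none fell (5 rose without MB1, and 1 fell without MB2), and the per-tumour medians were -0.07, 3.26 and 1.66. Folr1, a folate receptor of that epithelium, was at -4.87, -0.82 and -2.85 in MB1, MB2 and MB3 and at -4.49, -4.46 and -5.45 in the cerebella. It was above background in 2 of 3 cerebella. Its call (1.95 ± 0.72, adjusted p = 0.027) was lost without MB2, without MB3, without the third cerebellum, when only the 6 arrays were fitted and with the replicate number as a block. The water channel Aqp1 was above background in all 3 tumours and in no cerebellum, and was at least 38.4-fold higher. Of 9 meningeal genes 3 rose and 3 fell, with a median of 0.43 that became -0.01 without MB1 and -0.03 without the third cerebellum. Collagen Col3a1 rose by 2.94 ± 0.46, and prostaglandin synthase Ptgds went from 5.78, 5.68 and 3.64 to -1.37, -0.50 and -2.63.

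Signalling genes that steer granule precursors moved in both directions. Cxcr4, the receptor that holds precursors at the cerebellar surface, went from -4.61, -5.01 and -5.11 to 1.16, 0.27 and 0.72 (5.63 ± 0.25, 49.4-fold), whereas its ligand Cxcl12 fell by 3.17 ± 0.26 on the log2 scale. The neurotrophin receptor Ngfr rose by 4.92 ± 0.29 and the receptor kinase Ntrk3 by 1.53 ± 0.18. The neurotrophin Bdnf fell from 0.21, -0.06 and 0.10 to -5.42, -2.39 and -7.06, with 2 of 3 tumours above background, and its receptor Ntrk2 fell by 2.11 ± 0.30. In all, 3 of 8 rose and 5 fell.

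In the Notch and ID list 8 of 16 rose and 5 fell (median 0.40). The ligand Dll3 went from -4.73, -4.46 and -4.70 to 0.16, 1.72 and -0.57 (5.07 ± 0.56), Notch2, the receptor of granule precursors, rose by 1.30 ± 0.14, and the effector Hey1 by 1.74 ± 0.13. Id4, an inhibitor of helix-loop-helix factors, fell from 3.44, 3.23 and 3.25 to -2.62, -3.09 and -1.65. In the IGF system 4 of 11 rose and 1 fell (2 without MB1 or without MB2), and the median of 0.72 became -0.08 without MB3. The ligand Igf1 rose by 3.20 ± 0.22 and the adaptor Irs1, a substrate of its receptor, by 2.83 ± 0.13. Igf2r, which clears IGF2, fell by 2.21 ± 0.26 on the log2 scale.

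Axon guidance genes rose in 9 of 18 cases and fell in 7. The netrin receptor Dcc went from -4.68, -4.42 and -4.72 to 2.69, 2.58 and 3.36 (7.48 ± 0.19), while the netrin receptors Unc5a (-4.86 ± 0.88), Unc5b (-3.42 ± 0.44) and Unc5c (-4.10 ± 0.71) fell. The slit receptors Robo1 (2.78 ± 0.16) and Robo2 (3.56 ± 0.12) rose and the ligand Slit3 fell by 4.19 ± 0.50, with 2 of 3 tumours above background. Among RNA-binding proteins 9 of 16 rose and 5 fell. Ptbp1, which blocks neuronal exons in dividing cells, went from 0.15, 0.08 and 0.15 to 3.61, 3.06 and 3.55 (3.28 ± 0.13), and its successor Ptbp2 rose by 1.09 ± 0.07. Rbfox1, a splicing factor of mature neurons, fell by 2.60 ± 0.20 on the log2 scale.

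Most glycolysis genes were lower, 15 of 20 against 2 higher (median -1.01). The exceptions were Hk2, the inducible hexokinase, which went from 1.97, 1.72 and 1.60 to 4.58, 4.18 and 4.95, and Ldha (1.12 ± 0.25), which makes lactate. Their relatives Hk1 (-2.97 ± 0.16) and Ldhb (-1.78 ± 0.16) fell, as did the neuronal enolase Eno2 (-5.42 ± 0.54). Of 19 cholesterol synthesis genes 10 rose and 2 fell (6 fell without MB3, median 0.45), led by Cyp51 (1.59 ± 0.21) and Sqle (1.07 ± 0.18). Among 13 immediate early genes 4 rose (30.8%) and 6 fell (46.2%), against 40.7% and 33.5% of all tested genes. Their medians were -1.58, 0.02 and -1.23 in MB1, MB2 and MB3, and MB2 was nearest to the normal mean in 11. Arc, induced by synaptic activity, went from 1.44, 1.61 and 1.74 to -1.49, -1.15 and -1.29, and Egr2 was at least 63.7-fold higher, with no cerebellum above background.

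A rule that took the largest changes added genes outside these lists. Of the 10 highest changes among genes above background on all 6 arrays, Krt10, a keratin, went from -4.41, -4.41 and -4.62 to 4.50, 2.30 and 3.52 (7.92 ± 0.54) and Cd1d1, a lipid-presenting molecule, from -4.86, -3.90 and -4.61 to 3.15, 2.67 and 3.36 (7.52 ± 0.22). The other 8 were members of the lists, 6 of them cell cycle genes. Of the 10 lowest, Fam107a (-8.23 ± 1.12), Crtam (-8.00 ± 1.16), Itpka, a kinase of inositol phosphates in neurons (-7.59 ± 0.40), and Plk5, a polo-like kinase of neurons and glia (-7.41 ± 0.65), were outside the lists.

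Among genes with no cerebellum above background, the condensin subunit Ncapg was at least 520-fold, the membrane protein gene Shisal2b at least 486-fold and the spindle protein Nusap1 at least 346-fold higher. Among genes with no tumour above background, the largest bounds were those of Il22 (at least 179-fold lower), Gad2, the tubulin Tuba8 (126-fold), Hhatl (112-fold), Ms4a19 (95.5-fold), the proteoglycan Spock3 (90.3-fold) and the potassium channel subunit Kcng4 (86.5-fold). The link protein Hapln4, of the nets around inhibitory synapses, was at least 79.0-fold lower.

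The 3 tumours were not alike. Their levels ranged over at least 2-fold in 3971 of the 21661 genes, and in 1755 of these MB2 was the one farthest from the other two, in 1459 MB3 and in 757 MB1. The median range over the tumours was 0.45, against 0.21 over the cerebella. Among genes at least 2-fold lower in the tumours, MB2 was nearest to the normal mean in 2816 of 4597, and among those at least 2-fold higher in 3101 of 5138. In the lists, MB2 was nearest to the normal mean in 15 of 16 mature granule neuron, 19 of 23 synaptic, 28 of 29 replication, 7 of 19 Purkinje cell and 4 of 18 astrocyte genes. Differences between lists were not tested. The share of normal cerebellum in the pieces was not measured.

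The widest ranges, chosen for that width and given without a test, were 5.49 for Baiap2l1, an actin-membrane adaptor, and 5.48 for Xist, the RNA that silences 1 of the 2 X chromosomes of females. Baiap2l1 was at -1.02 in MB1, 1.88 in MB2 and -3.61 in MB3. Xist was at -1.49, 1.23 and -4.25 there and between -0.03 and 0.08 in the cerebella. The median shift of X-linked genes was close to that of all genes in each tumour (-0.02, 0.07 and 0.09 after subtracting the latter). The X-linked Bex4 was at -1.31, 3.45 and -1.90, beside 3.46 to 3.71 in the cerebella. Gpr17, of committed oligodendrocyte precursors, was at 0.94, 3.99 and -1.27 beside 1.69 to 2.09, and Rprml at 2.37, -2.50 and -1.06. Rlbp1, of glia (-1.75, -0.22 and -4.82), Egr4 (-2.16, 1.29 and -3.30) and Runx1t1, a corepressor of neurons (-4.21, -0.52 and -4.97), were highest in MB2.

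**Figure D3:**
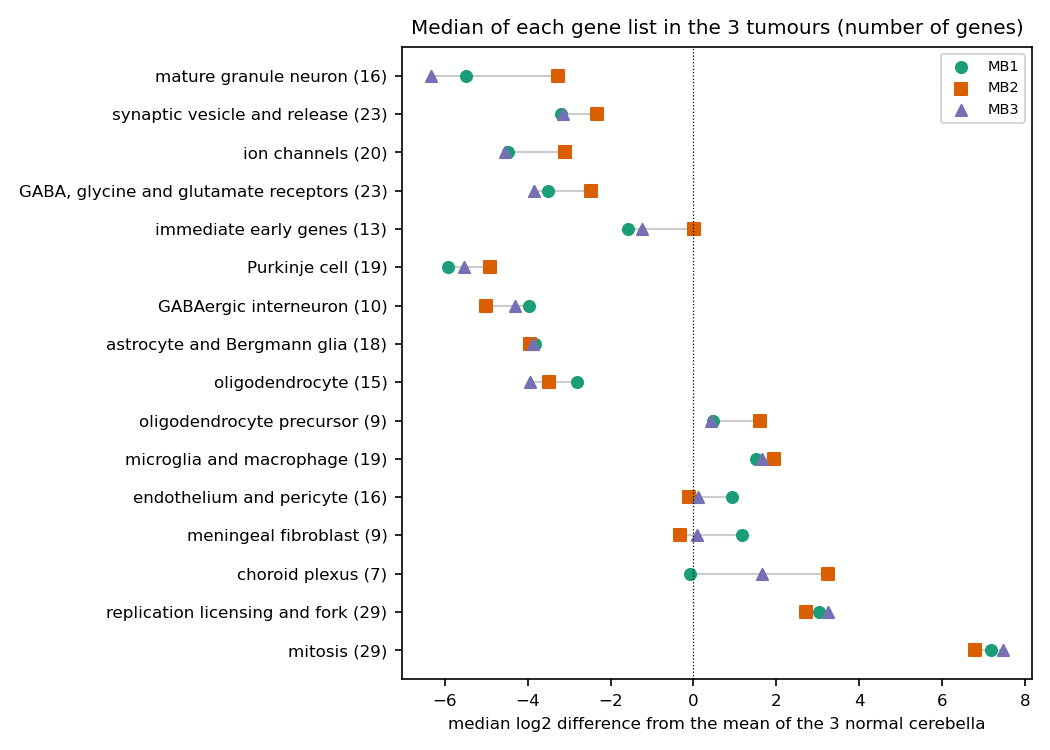
Median change of each gene list on the log2 scale against the mean of the 3 normal cerebella, with 1 point for each of MB1, MB2 and MB3. The point of MB2 lies nearer to 0 than the others for mature granule neuron genes (-3.27 against -5.49 and -6.34), and choroid plexus genes spread from -0.07 in MB1 to 3.26 in MB2.

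Chromosome 6 had the largest shift of a chromosome median in each tumour. Of 673 tested genes on chromosome 6, 49.5% were higher and 25.1% lower in the tumours, with a median change of 0.48. After subtraction of the median of all genes, chromosome 6 lay 0.32 above the normal mean in MB1, 0.24 in MB2 and 0.68 in MB3. The same measure in each cerebellum against the other two was -0.01, 0.01 and -0.002, and over all other chromosomes the tumours ranged from -0.23 to 0.20. Against the mean of the other 11 tumours, chromosome 6 was 0.37 higher in MB3, 0.03 higher in MB1 and 0.10 lower in MB2. These are medians over genes and not a measurement of DNA. Ccnd2 and Atoh1 are on this chromosome, and the part of its shift in their changes was not tested.

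**Figure D4:**
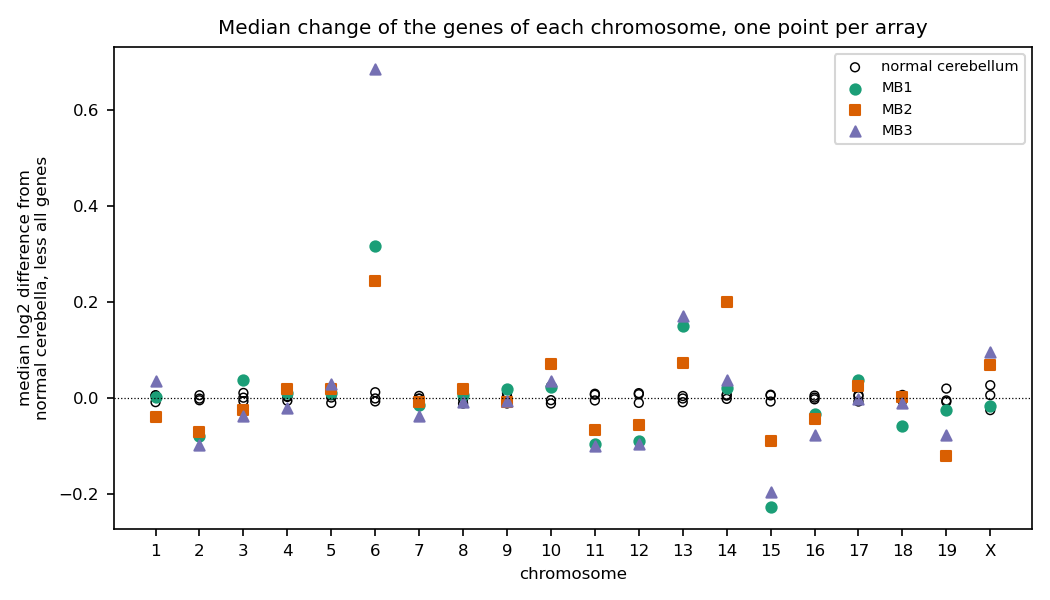
Median difference of the genes of each chromosome from the normal mean, less the median of all genes of the array, on the log2 scale, with 1 point for each of the 6 arrays. Chromosome 6 is the highest in MB3 (0.68), MB1 (0.32) and MB2 (0.24), though in MB2 chromosome 14 is close to it (0.20), while the normal cerebella stay near 0.

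Little separated these tumours from the S-type tumours that arose after 0.2 Gy. One gene of 21661 passed (0.00462%), and 1249 (5.77%) were below an unadjusted p of 0.05. The groups did not overlap in 1856 genes (8.57%). The gene was Zic2, at -0.11, -0.26 and -0.47 without irradiation and at -1.27, -1.23 and -1.30 after 0.2 Gy. All unirradiated tumours lay above all irradiated ones, by 0.99 ± 0.11 (adjusted p = 0.041). That call was lost in 8 of 15 alternative settings, among them those without MB2, MB4, MB5 or MB6. On simulated data with the same arrays and genes, and with 50 genes changed at each size, 50% of genes changed by 1 log2 unit and 78% of those changed by 2 were recovered. Where fewer genes change the adjustment is stricter, so these shares may be too high for the real comparison. Gpat2, at 3.06 ± 0.69, did not pass there (adjusted p = 0.45). Single changes of that size can thus be missed with 3 arrays each. Dose, age and sex differed together between these groups.

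Against the 6 R-type tumours the differences were many more. In this comparison dose and age (87 to 127 against 160 to 173) differed together with the type and cannot be told apart from it. The S-type tumours after 0.2 Gy share their dose with the 0.2 Gy R-type tumours, and their levels are given for Ptch1, Gpat2, Mgarp and Plagl1. Of the tested genes 6812 (31.4%) were below an unadjusted p of 0.05 and 3469 passed (16%), 1743 higher (8.05%) and 1726 lower (7.97%) in the unirradiated S-type tumours, with at least 2-fold changes in 477 (2.2%) and 272 (1.26%). The split of calls rested on the scaling, with 2800 higher and 479 lower when arrays were not scaled. It also depended on the genes counted, since among the tested genes with a symbol 884 were higher and 1224 lower. Ptch1 was at -3.22, -3.03, -3.21, -3.20, -2.75 and -3.11 in MB7 to MB12, all below the 3 unirradiated tumours, which were higher by 1.38 ± 0.14 (adjusted p = 0.000219) and by 1.18, 1.38 and 1.62 within slides 1, 2 and 4. In the S-type tumours after 0.2 Gy it was at -1.65, -1.81 and -2.11. Chromosome 13, which carries Ptch1, had 125 genes higher and 22 lower of 483, with a median of 0.29, and lay 0.18, 0.18 and 0.17 above the other tumours in MB1, MB2 and MB3.

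Among other members of the lists, Cdkn2a was at -2.66, -1.53, -1.52, -2.77, -2.33 and -3.26 in the R-type tumours, lower than in each unirradiated one, which were higher by 3.28 ± 0.36, and Cdkn2b was higher by 1.2. The precursor factors Sox4 (1.25), Zic4 (1.04), Zic2 (0.78) and Barhl1 (0.70) were higher and Pax6, which acts in the same cells, lower (-1.31). Sfrp1 (-0.68) and Hey1 (-0.77) were lower. Of the 29 mitosis genes none passed in either direction, whereas 8 of 17 nucleotide supply genes and 5 of 29 replication genes passed as lower, such as Impdh2 (-0.50), an enzyme of guanine nucleotide synthesis, and Mthfd1 (-0.49). The calcium pump Atp2b2 (2.14) and the sodium channel Scn1a (1.26) were higher, and MB2 had the highest level of both among the unirradiated tumours. Choroid plexus genes moved with this comparison, with 5 of 7 higher, none lower and a median difference of 2.03. Their count was 1 without MB2, without MB9 or without MB11, 2 without any one of the other arrays except MB1, and 0 when only the arrays compared were fitted, and their part in the other differences was not tested.

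Other large differences that met the rule lay outside the lists. Shisal2b, on chromosome 13, was at 3.55, 3.58 and 2.96 in the unirradiated tumours and between -0.23 and 1.44 in the R-type ones. Gpat2, an acyltransferase, was higher by 5.13, and the S-type tumours after 0.2 Gy, at -1.47, -0.20 and 0.56, lay below all 3 unirradiated ones. Mgarp, a mitochondrial protein, was at -2.66, -3.36 and -3.12 in the unirradiated tumours and between 0.24 and 1.78 in the R-type ones (-4.01 ± 0.37). In the S-type tumours after 0.2 Gy it was at -2.30, -1.60 and -3.21. Its change from the cerebella did not pass (-0.77 ± 0.42, adjusted p = 0.12, but 0.036 when only the 6 arrays were fitted and 0.020 with the replicate number as a block). Plagl1, an imprinted zinc finger gene, was at -1.13, -0.54 and -1.43 against 1.1 to 2.42 in the R-type tumours, with the cerebella between them at 0.51, 0.57 and 0.38. The S-type tumours after 0.2 Gy had it at -1.20, -1.14 and -0.63.

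**Figure D5:**
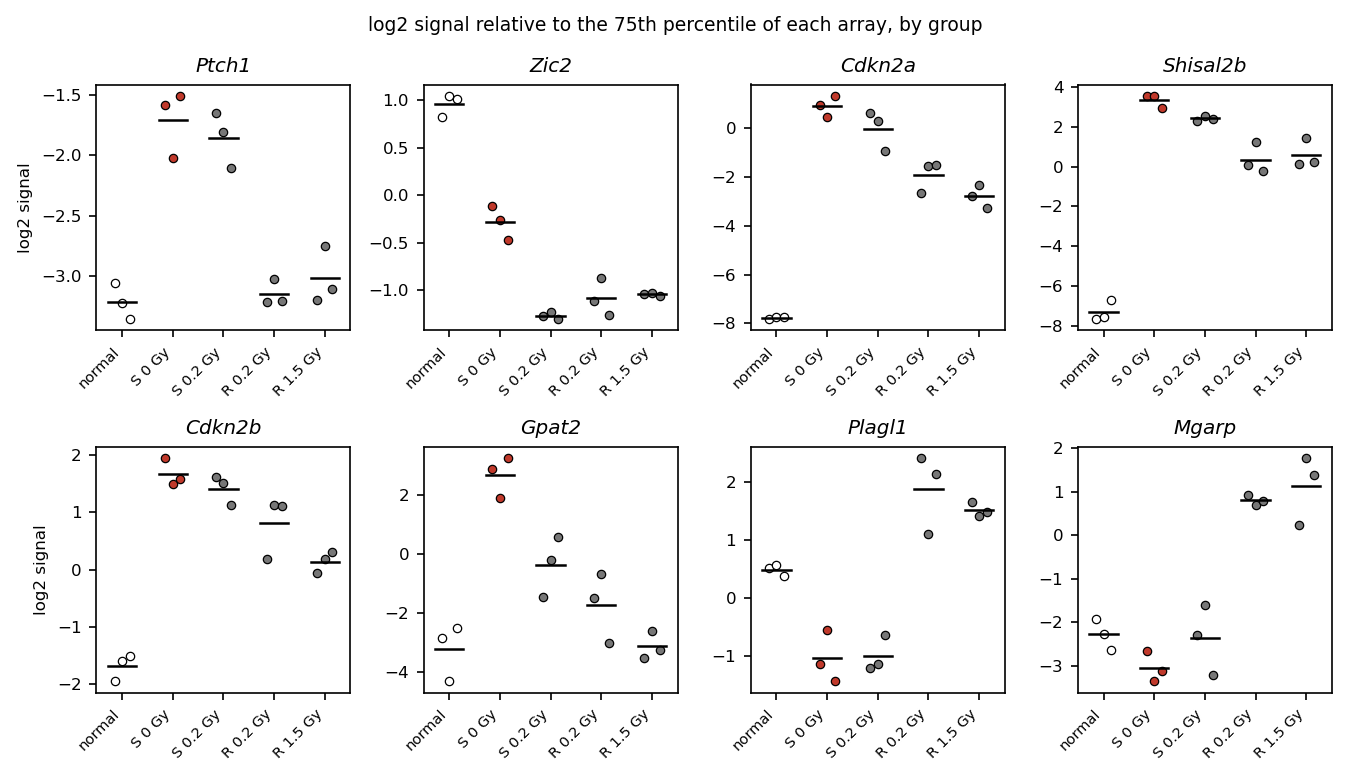
Levels of 8 genes on the log2 scale in each of the 5 groups, with 1 point for each array and a bar at the group mean. Ptch1, Cdkn2a and Shisal2b are higher in all 3 unirradiated S-type tumours than in all 6 R-type tumours, Mgarp and Plagl1 are lower, and Zic2 separates the unirradiated from the 0.2 Gy S-type tumours.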

How the data were processed

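RNA of 12 tumours and 3 normal cerebella was labelled with 1 dye and hybridised to 15 mouse arrays. The intensity values used are the processed signals the authors deposited, made with Agilent Feature Extraction, version 9.5.1 in the submitters' processing notes. The deposited log2 table, centred at each probe so that MB1 and MB2 sum to 0, with column medians from -0.08 to 0.15 and its scaling between arrays unknown, was used as an alternative only. Processed signals were scaled here to each array's upper quartile after log2, spots of a probe were averaged, and the probe with the highest mean was kept per gene, which left 21661 genes well above background on at least 3 arrays. Gene names came from RefSeq through the array's accessions. An accession without a single RefSeq symbol counted as a gene of its own, and 13428 of the tested genes had a symbol. All 15 arrays in 5 groups entered 1 limma 3.58.1 fit (lmFit, eBayes) in R 4.3.3, and p-values were adjusted by the Benjamini-Hochberg method over all tested genes. A gene that no array of a group had well above background is given as a bound, but enters list medians with its signals as measured. Named are Ptch1, the 10 largest changes and bounds in each direction, the 6 largest differences for the other comparisons, up to 4 passing members of each list in each direction with its defining members, and the 8 widest ranges among the tumours. Some list members were added after their values were seen. The members and lists were chosen with earlier results of these data known. The fit was tested on simulated data. Numbers in the sample names were not used to pair tumours with cerebella in the main fit. Some genes that met the rule are not reported here.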

Additional observations from a re-analysis of the deposited data

Results flagged for a closer look

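These results are differences between tumour groups, each from the test of the contrast itself in limma. Zic2 was higher by 0.99 in the unirradiated than in the 0.2 Gy S-type tumours. Against the R-type tumours 3469 genes passed. Among the largest that met the naming rule were Gpat2 (5.13), Mab21l2 (4.68) and Prl (4.56) higher in the unirradiated S-type tumours, and Mgarp (-4.01), Plagl1 (-2.74), Cfap299 (-2.62) and Mdk (-2.60) lower. Mab21l2 was above background in 3 and Prl in 4 of the 6 R-type tumours. Mdk was at 3.31, -0.03 and 3.34 in MB1, MB2 and MB3. Against the R-type tumours on the same slide these lay lower, with Mdk at -1.65, -4.34 and -1.51. Cfap299 gave -4.79, -1.99 and -0.85 in the same order. Igsf23 was at least 48.9-fold and Edaradd at least 4.01-fold higher, with no R-type tumour above background, and Pramel48 at least 3.46-fold lower, with no unirradiated tumour above it. The call of Zic2 was lost in 8 of 15 alternative settings, and those of Mab21l2, Pramel48 and Mdk were lost under some settings.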

How the results depend on the processing

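Members and lists were not chosen independently of the data, and 3 arrays a group limit the precision. For the tumours against the cerebella, the counts ranged from 7786 to 9060 higher and from 6543 to 7482 lower genes over all alternatives. Of 5397 genes with more than 1 probe above background, 290 had probes that passed in opposite directions. With the median over probes, 102 genes passed in the opposite direction. Of 218 named genes, 202 kept direction and side of the threshold in every alternative run. With the replicate block, the title number as a term, 7786 genes were higher and 6543 lower. After subtracting the group means, the correlations of same-numbered samples were 0.05, -0.02 and -8.4e-05. That check rests on 3 pairs, and a shared origin of same-numbered samples was not otherwise tested. The named genes whose changes reversed were Gpr17, Mbp, Rlbp1 and Zic1, none of which passed as reported. Gpr17 was at 0.42 with the median over probes, and at -2.03 to 0.60 without single arrays. Mbp was at -1.45 with the median over probes. Rlbp1 went from -2.26, which passed, without MB2, to 0.0385 without MB3. Zic1 was at -0.12 to 0.0012 without single arrays, and at -0.56, which passed, with quantile normalization. Against the 0.2 Gy S-type tumours, 0 genes were higher when only the arrays compared were fitted, with no scaling, without the filter on dim probes and with the slide as a block. Quantile normalization and the stricter filter each gave 1 lower gene, also past 2-fold. The deposited table and the median over probes each gave 2 higher and 1 lower, with 1 and 1 past 2-fold. Without single arrays, 0 to 12 were higher and 0 to 8 lower, with 0 to 9 and 0 to 7 past 2-fold, the highest counts without MB1. Against the R-type tumours, fitting only the arrays compared gave 792 higher and 586 lower (304 and 171 past 2-fold). No scaling gave 2800 and 479 (771 and 167), normexp correction 190 and 140 past 2-fold, and no filter on dim probes 1069 lower. Without single arrays 1079 (without MB9) to 1651 were lower. The causes were not tested.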
